A study of Homo sapiens with 4 samples.

Results

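The 9 genes STAT2, STAT3, IRF1, IRF2, IRF3, IRF7, IRF9, JAK1 and TYK2 encode kinases and transcription factors of interferon signalling, and they were taken by gene symbol from a table of 23217 gene symbols. They account for 28 of its 44578 transcripts. RNA came from LV-M100, a single subclone of the human breast cancer line MDA-MB-231, 48 h after siRNA transfection with a lipid reagent. The siControl condition comprised 1 library with the NC1 siRNA and 1 with the BLOCK-iT Fluorescent Oligo, and the siSNRNP40 condition comprised 1 library with each of the siRNAs #1 and #2 against SNRNP40, whose product belongs to the U5 particle of the spliceosome. All 4 libraries therefore received double-stranded RNA, and no untransfected cells are among them. Both libraries of a condition are pooled into 1 FPKM value per transcript (fragments scaled by transcript length and by mapped fragments). Every value below is thus the authors' pooled value, none has a replicate error, and the depth is unknown. No new test between the conditions could be made from these values, and the results of the authors' own comparison were left aside. Whether a difference came from the condition or from 1 library cannot be told apart.

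Type I interferons bind the receptor chains IFNAR1 and IFNAR2, which activate the kinases JAK1 and TYK2. These phosphorylate STAT proteins. STAT2 then acts with IRF9 in the complex ISGF3, which binds the interferon-stimulated response element in promoters of antiviral genes. IRF3 and IRF7 act before this step and switch on the interferon genes when foreign RNA is sensed. IRF1 is induced by interferon gamma and activates transcription, IRF2 competes with it at the same DNA sites, and STAT3 carries signals of the interleukin-6 family as well.

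The siRNA strands against SNRNP40, given 5′ to 3′ as in the sample labels, are shown because they are the sequences by which the siSNRNP40 libraries were made.
siSNRNP40 #1: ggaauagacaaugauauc
siSNRNP40 #2: ggauuugaccgacugaua

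The FPKM of SNRNP40 was 40.4 in siControl and 6.12 in siSNRNP40, a decrease of 84.9%. Markers of the parental line were abundant in both conditions, with an FPKM of 750.1 and 733 for VIM and of 116 and 141 for CD44. The estrogen receptor gene ESR1 was below an FPKM of 0.02, whereas 3 of 6 genes listed as absent or low in the line (ERBB2, EPCAM and KRT8) exceeded a mean FPKM of 1. Among 10 markers of leukocytes, fibroblasts and endothelium, PTPRC, DCN and CDH5 were listed at 0 in both conditions, and only LYZ (8.46 and 10.2) and PECAM1 (0.922 and 1.2) reached a mean FPKM of 1. The 5 leukocyte markers summed to 8.94 in siControl and 10.6 in siSNRNP40, and the 3 fibroblast markers to 0.113 and 0.259. Of 4 markers of luminal or other breast cells only GATA3 reached a mean FPKM of 1 (1.32 and 1.18). The part of other cell types in the results was not tested, and fewer cells of a type cannot be told apart from less RNA per cell.

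To ask whether SNRNP40 depletion altered the genes that carry the interferon signal, FPKM was summed over the transcripts of each gene and compared as siSNRNP40 over siControl. A gene counted as expressed if its FPKM averaged 1 or more over both conditions, which was so for all 9. None of them had an absolute log2 fold change above 1, against 1.47% of the 12334 expressed genes with a value above 0 in both conditions. None differed 1.5-fold (0.585 on the log2 scale), against 7.02% of all genes. This share depends on level. At a mean FPKM of at least 5, which 8 of the 9 reached, it was 3.63% of all genes, and again none of the 8 differed 1.5-fold. With the most expressed transcript (highest mean of both conditions) in place of the sum, 2 of the 9 differed 1.5-fold (IRF3 and IRF7), against 11.7% of all genes. For IRF3 this choice sets the direction. The transcript with the highest mean had a log2 fold change of 0.69, and the one highest in siControl had -0.95. The log2 fold change was within 0.2 of 0 in 7 of the 9 genes and in 56.6% of all genes. Its median was -0.033 over the 9 genes (0.099 with the most expressed transcript) and 0.0034 over all genes, and the median absolute value was 0.079 over the 9 genes and 0.17 over all genes. By gene sums, IRF2 and IRF7 lay apart from the other 7, with the largest log2 fold changes (0.54 and 0.46, the latter 0.28 with a pseudocount of 1), both positive.

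**Figure D1:**
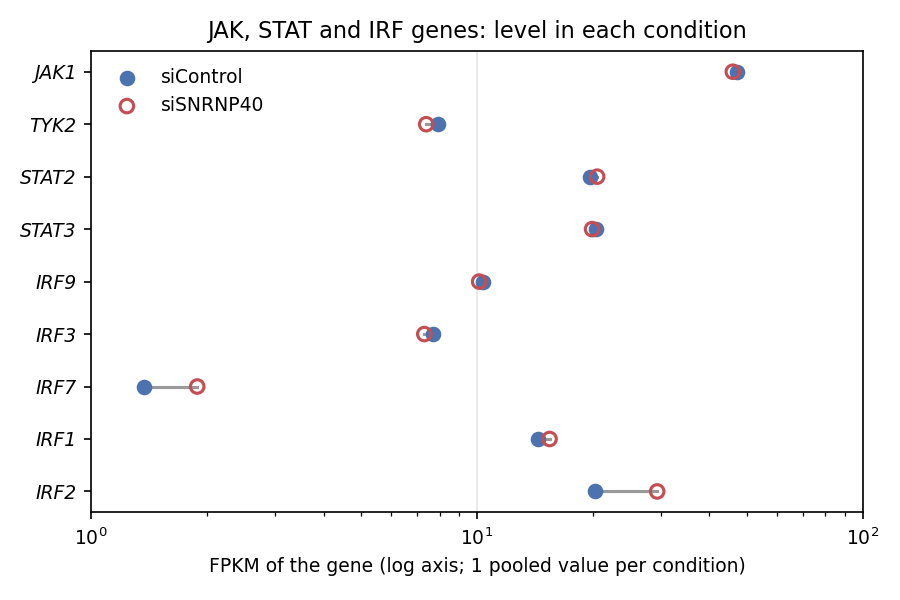
FPKM of each gene, summed over its transcripts, on a log axis in siControl (filled) and siSNRNP40 (open), with 1 pooled value per condition and no error. JAK1 was highest in both conditions and IRF7 lowest, and the pairs of points of IRF2 and IRF7 are visibly separated.

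In siControl the order of the levels was JAK1 (47.2), STAT3 (20.3), IRF2 (20.2), STAT2 (19.6), IRF1 (14.4), IRF9 (10.4), TYK2 (7.94), IRF3 (7.71) and IRF7 (1.37), all in FPKM, which is per length and so allows genes to be compared. Over all expressed genes the median was 10.7. In siSNRNP40, IRF2 had rank 2, STAT2 rank 3 and STAT3 rank 4, and the other ranks were the same. Without replicates it cannot be said which neighbours in this order differ beyond their spread.

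JAK1, the kinase shared by the receptors of all interferon types, is annotated on chromosome 1 (GRCh37, minus strand), positions 65298906 to 65533437. It is listed as 1 transcript, with an FPKM of 47.2 in siControl and 46.0 in siSNRNP40 (log2 fold change -0.037). The canonical transcript has 25 exons. TYK2, the kinase bound to IFNAR1, also has 25 exons and lies on chromosome 19 of hg19 from 10461204 to 10491248. Its single transcript had an FPKM of 7.94 and 7.38 (-0.10). Both kinase genes were thus slightly lower in siSNRNP40, and 67.2% of all genes differed at least as much as TYK2. RAVER2, which overlaps the end of JAK1 by 10 bases on the opposite strand, had an FPKM of 4.60 and 4.02 (-0.19).

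STAT2, the STAT protein particular to type I and type III interferon signalling, lies on chromosome 12 from 56735382 to 56754037. Its summed FPKM was 19.6 in siControl and 20.5 in siSNRNP40 (log2 fold change 0.064). The major transcript was higher, at 13.98 and 16.9 (0.27), and the minor one lower, at 5.61 and 3.61 (-0.64). The share of the minor transcript was 28.7% in siControl and 17.6% in siSNRNP40, a difference of 11.0 percentage points. The table does not name the exons by which these transcripts differ.

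STAT3 lies on chromosome 17 from 40465343 to 40540513 and is listed with 5 transcripts. Its summed FPKM was 20.3 and 19.9 (log2 fold change -0.033). Its 3 expressed transcripts had 12.3 and 13.1, 5.87 and 4.53, and 2.19 and 1.92. In the deposited table all 5 rows carry the status that the calculation failed, as do 69 rows of 24 genes in all, so the values of STAT3 are less certain than those of the other genes.

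IRF9, the DNA-binding subunit of ISGF3, lies on the plus strand of chromosome 14 from 24630422 to 24635774. Its single transcript had an FPKM of 10.4 in siControl and 10.1 in siSNRNP40 (log2 fold change -0.035). A protein-coding gene model that reads through from the gene upstream overlaps 5219 bases of IRF9. That upstream gene, RNF31, had an FPKM of 8.20 and 7.88 (-0.057).

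IRF3, which is present before infection and is activated by phosphorylation, is annotated on the minus strand of chromosome 19 from 50162826 to 50169132. Its deposited locus runs on to 50177173, the annotated end of the neighbour BCL2L12. The summed FPKM of IRF3 was 7.71 in siControl and 7.30 in siSNRNP40 (log2 fold change -0.079). Its transcripts differed in opposite directions. The transcript with the highest mean had an FPKM of 2.23 and 3.60 (0.69), a second had 3.26 and 1.69 (-0.95), and another had 1.31 and 1.46 (0.16). The first therefore supplied 29.0% of the gene's FPKM in siControl and 49.2% in siSNRNP40, and the second 42.3% and 23.1%. The other 10 of its 13 transcripts had a mean FPKM of at most 0.257, and 4 of them were listed at 0 in both conditions. BCL2L12, which overlaps IRF3 by 734 bases on the opposite strand, was similar in sum (4.59 and 5.16, log2 fold change 0.17), but its FPKM was assigned to different transcripts. 1 transcript supplied 99.995% of it in siControl and 0.284% in siSNRNP40. Whether the counting used strand is not given in the sources used here, and the part of reads shared between IRF3 and BCL2L12 was not tested.

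IRF7, which amplifies the interferon response and is itself an interferon-stimulated gene, lies on chromosome 11 from 612555 to 615999. Its summed FPKM was 1.37 in siControl and 1.88 in siSNRNP40, a log2 fold change of 0.46, which was 0.28 with a pseudocount of 1. Its only expressed transcript had 1.05 and 1.60 (0.61), while of the other 2 transcripts 1 was listed at 0.321 and 1.89e-05 and 1 at 0 and 0.282. At least as large a change was seen in 12.4% of all genes and in 28.5% of the 1675 genes with a mean FPKM within 1.5 times that of IRF7. The neighbour PHRF1, which ends 330 bases from IRF7 on the opposite strand, had a log2 fold change of 0.18.

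IRF1, a transcriptional activator, lies on chromosome 5 from 131817301 to 131826465 and had an FPKM of 14.4 in siControl and 15.4 in siSNRNP40 (log2 fold change 0.099). An antisense RNA, IRF1-AS1, is annotated over part of it. IRF2, the antagonist of IRF1, lies on chromosome 4 from 185308876 to 185395726. Its FPKM was 20.2 and 29.3, the largest change of the 9 gene sums (0.54, or 1.45-fold). With the most expressed transcript in place of the sum, IRF3 (0.69) and IRF7 (0.61) changed more. The change of IRF2 was matched or exceeded by 8.62% of all genes and by 3.90% of the 2384 genes with a mean FPKM within 1.5 times that of IRF2. Both IRF1 and IRF2 are listed as single transcripts, so no division among isoforms enters these values.

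**Figure D2:**
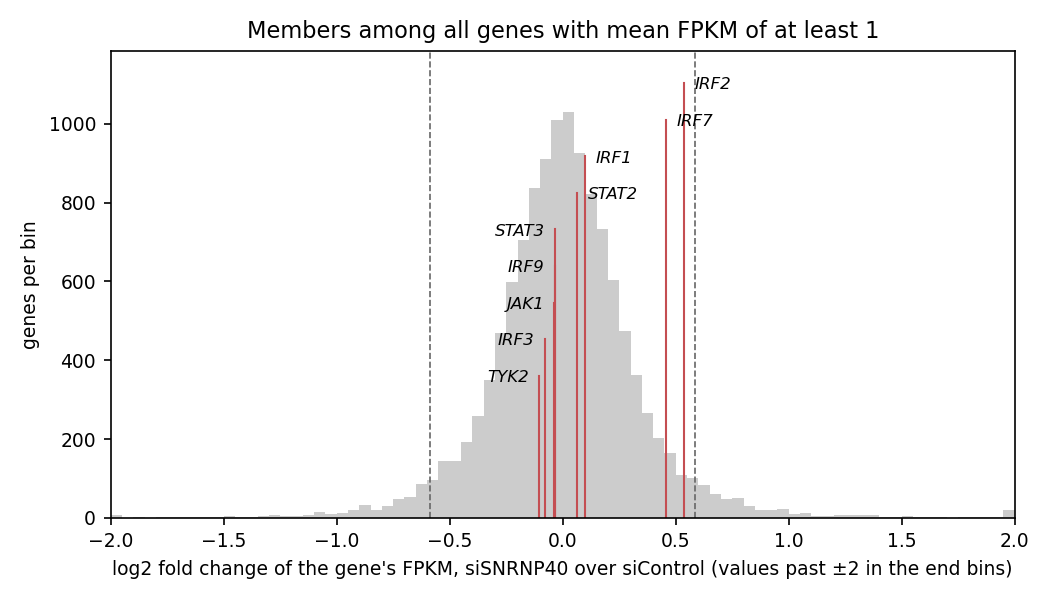
Histogram of the log2 fold change (siSNRNP40 over siControl) of 12334 genes, with the 9 genes as red lines whose heights only separate the names; dashed lines mark a 1.5-fold change. IRF2 (0.54) and IRF7 (0.46) lie near the upper dashed line, and the other 7 between -0.10 and 0.099.

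At the level of single transcripts, 14 of the 28 were expressed (mean FPKM of 1 or more). Of these 14, 7 were higher and 7 lower in siSNRNP40. None passed an absolute log2 fold change of 1, against 10.5% of 16691 transcripts in all, and the nearest was the second IRF3 transcript at -0.95. Without the filter on low values 5 of 19 passed, against 24.2% of all transcripts. A 1.5-fold difference was seen for 2 transcripts in each direction, those of IRF3 and IRF7 being higher and those of IRF3 and STAT2 lower, against 11.1% of all transcripts that were higher and 10.1% that were lower. IRF3 was the only 1 of the 3 genes with several such transcripts in which transcripts differed 1.5-fold in both directions, which was the case in 16.9% of 3166 genes of this kind.

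The share of a transcript in its gene's FPKM changed most in IRF7 (23.4 percentage points) and IRF3 (20.3), and less in STAT2 (11.0) and STAT3 (6.11). Thus 2 of 4 genes with several transcripts passed 20 points, against 20.7% of 5282 such genes, whose median was 7.35. In IRF7 the change belonged to a transcript with a mean FPKM of 0.160.

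**Figure D3:**
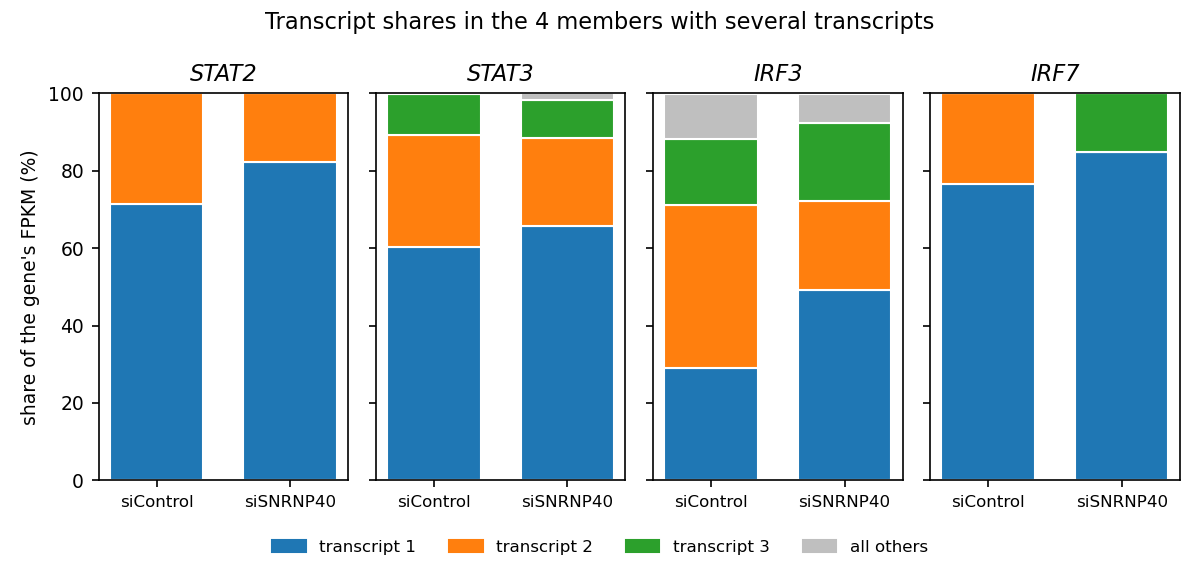
Share of each transcript in the summed FPKM of its gene (%) for the 4 genes with several transcripts, in siControl (left bar) and siSNRNP40 (right bar), ordered by mean FPKM from the bottom, with transcripts after the third joined in grey. In IRF3 the largest share was 42.3% in siControl and belonged to the second transcript, and it was 49.2% in siSNRNP40 and belonged to the first.

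The other genes of the pathway were read from lists of receptors, ligands, other JAK, STAT and IRF genes, upstream activators and inhibitors. Of 54 listed genes 37 were expressed. Among these 37, 3 were 1.5-fold higher, against 3.77% of all genes, and 1 was 1.5-fold lower, against 3.25%. Their median log2 fold change was 0.020, with 21 above 0 and 16 below.

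Of the interferon genes on the ligand list, those for interferon lambda had no row and interferon alpha genes were not analysed here. IFNB1, IFNG and IFNK were listed at 0 in both conditions, and IFNE was at 0.0202 in siControl and at 0 in siSNRNP40. IL6, a cytokine that signals through JAK1 and STAT3, had an FPKM of 8.47 and 15.1 (log2 fold change 0.83), and LIF, of the same family, had 7.10 and 6.07 (-0.23).

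None of 8 expressed receptor chains differed 1.5-fold, against 7.02% of all genes. Both chains of the type I receptor were somewhat higher, IFNAR1 at 10.4 and 13.4 (log2 fold change 0.37) and IFNAR2 at 2.29 and 3.05 (0.42). Of the interferon gamma receptor, IFNGR1 had 16.6 and 22.2 (0.42) and IFNGR2 28.1 and 24.6 (-0.19). IL6ST, the signalling chain for interleukin-6, was the most abundant at 64.7 and 75.9 (0.23), and LIFR had 12.7 and 9.70 (-0.39).

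Among the other JAK, STAT and IRF genes 6 of 11 were expressed. STAT5A had an FPKM of 2.26 in siControl and 4.16 in siSNRNP40 (log2 fold change 0.88). It was the only 1 of the 6 that differed 1.5-fold, against 7.02% of all genes. JAK3 had 1.13 and 1.61 (0.51), JAK2 had 3.26 and 4.45 (0.45), and STAT6 had 24.8 and 29.6 (0.26).

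Of 7 expressed upstream activators 1 was 1.5-fold higher, against 3.77% of all genes. This was TMEM173, which encodes the DNA-sensing adaptor STING, with an FPKM of 2.41 and 5.77 (log2 fold change 1.26). TBK1, the kinase that phosphorylates IRF3, had 33.0 and 31.1 (-0.087), and MAVS, the adaptor of the RNA sensors, had 17.4 and 16.4 (-0.079). IKBKE (0.088) and the acetyltransferase gene EP300 (0.16) were also close to 0.

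Of 14 expressed inhibitors 1 was 1.5-fold lower, against 3.25% of all genes. This was IRF2BPL, with an FPKM of 8.73 and 5.22 (log2 fold change -0.74). IRF2BP2, which encodes a corepressor that binds IRF2, had 20.3 and 14.4 (-0.50). USP18, which restrains the type I receptor and is induced by interferon, had 2.22 and 2.84 (0.35). The phosphatase genes PTPN1 (50.6 and 40.5, -0.32), PTPN2 (63.3 and 72.1, 0.19) and PTPN11 (68.3 and 59.0, -0.21) were the most abundant.

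Most target genes of ISGF3 were higher in siSNRNP40. Of 20 listed targets 19 were expressed, and 18 of the 19 were above 0. Their median log2 fold change was 0.48, against -0.033 for the 9 signal genes (0.099 with the most expressed transcript) and 0.0034 for all genes. Of the 19, 7 were 1.5-fold higher (36.8%, against 3.77% of all genes) and none was 1.5-fold lower. This list was drawn up with higher levels of interferon-stimulated genes in these siSNRNP40 libraries already known, so its direction is not independent evidence.

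**Figure D4:**
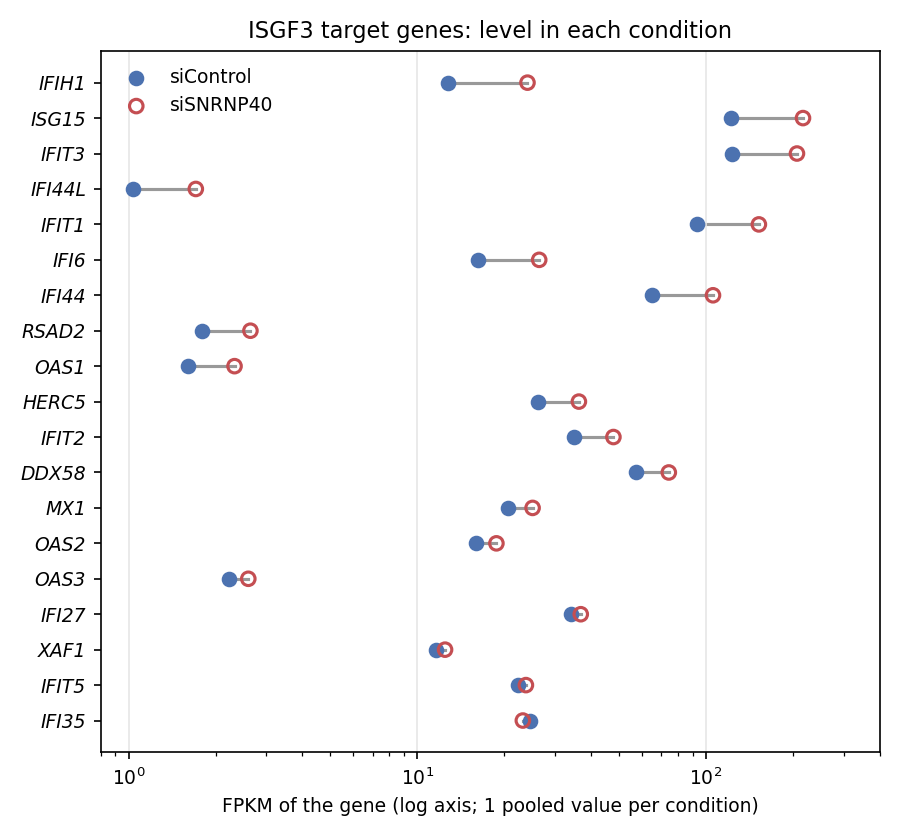
FPKM of the 19 expressed ISGF3 targets on a log axis in siControl (filled) and siSNRNP40 (open), 1 pooled value per condition, sorted by log2 fold change from IFIH1 (0.91) to IFI35 (-0.079). The open point lies to the right in every gene but IFI35.

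IFIH1, which encodes the RNA sensor MDA5, had an FPKM of 12.8 in siControl and 24.1 in siSNRNP40 (log2 fold change 0.91). ISG15, a ubiquitin-like protein, had 122 and 217 (0.83), and IFIT3, an antiviral RNA-binding factor, had 124 and 207 (0.74). IFI44L had 1.04 and 1.71 (0.72). The other 3 genes past the limit, named for that reason, were IFIT1 (93.1 and 153, 0.71), IFI6 (16.2 and 26.4, 0.70) and IFI44 (65.2 and 106, 0.70). Among the targets that did not pass it, the most abundant were DDX58 (57.1 and 74.4, 0.38) and IFIT2 (34.8 and 47.8, 0.46). IFI27 had 34.1 and 36.8 (0.11) and IFI35 had 24.5 and 23.2 (-0.079). All of these were named after their values were seen. The 20 targets summed to 687 in siControl and 1040.5 in siSNRNP40.

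Targets of the other members had medians nearer to that of all genes. Of 8 expressed genes with sites for IRF1 or gamma-activated STAT dimers, 2 were 1.5-fold higher (25%, against 3.77% of all genes), and 7 were above 0. The 2 that were higher were the adhesion molecule gene ICAM1 (5.42 and 11.4, log2 fold change 1.08) and IDO1 (2.79 and 4.64, 0.73). The antigen processing genes TAP1 (27.1 and 33.7, 0.31), PSMB9 (33.5 and 36.2, 0.11) and PSMB8 (76.9 and 82.0, 0.092) were closer to 0, and the median of the list was 0.10. These 3 are each listed on several alternate haplotypes of the chromosome 6 histocompatibility region as well, so their sums are less certain. Of 7 expressed STAT3 targets 1 was 1.5-fold lower, against 3.25% of all genes, and none was 1.5-fold higher. The gene that was lower was VEGFA, which encodes an angiogenic factor (119 and 64.5, -0.88). CCND1, the gene of cyclin D1, had 184 and 170 (-0.12), JUNB had 2.72 and 3.60 (0.41), MCL1 had 80.4 and 63.1 (-0.35) and BCL2L1 had 52.2 and 46.1 (-0.18). The median of this list, which shares SOCS3 with the inhibitors, was -0.12.

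**Figure D5:**
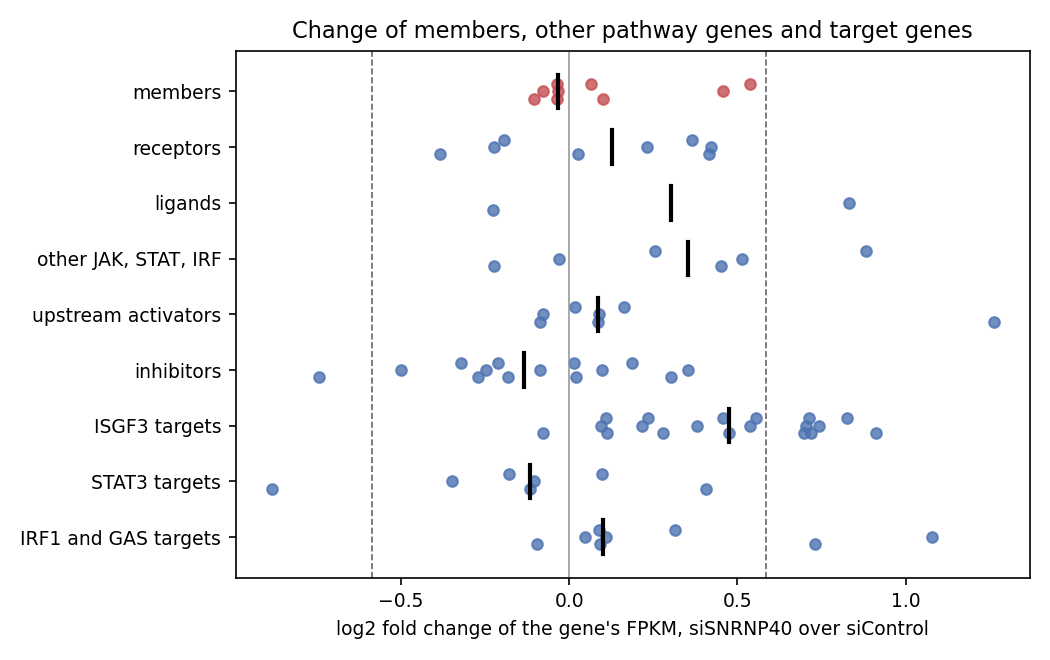
Log2 fold change (siSNRNP40 over siControl) of each expressed gene in the 9 signal genes (red) and 8 lists of pathway and target genes (blue), with black bars at the medians and dashed lines at a 1.5-fold change; GAS is the gamma activated site. The ISGF3 targets have the highest median (0.48), and 18 of 19 points lie above 0.

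The DNA that ISGF3 recognises can be read in these promoters. The motif searched was GAAANNGAAA on either strand (TTTCNNTTTC on the other), a core of the interferon-stimulated response element, in RefSeq promoters of GRCh38.p14 running from 250 bases before to 50 after a start site. It occurs in 3.57% of 35116 promoters. It was found in 13 of the 17 ISGF3 targets with an entry, in 7 of the 7 that were 1.5-fold higher and in 6 of the other 9 that were expressed. Those 6 were IFIT5, MX1, OAS3, IFI27, RSAD2 and HERC5, with log2 fold changes from 0.094 (IFIT5) to 0.55 (RSAD2). Here a gene counted if any of its promoters held a match, so these counts are not in the unit of the 3.57%. Because the list is made of ISGF3 targets, many matches in it are no independent evidence. Entries for IFIT2, OAS2 and DDX58 were missing. The 7 sites below are only from the targets that were 1.5-fold higher. Each is the match nearest to a start site that leaves 20 bases on both sides before it, with the matched bases in capitals.
ISG15: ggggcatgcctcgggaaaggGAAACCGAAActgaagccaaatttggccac
IFI6: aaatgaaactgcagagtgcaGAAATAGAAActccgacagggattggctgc
IFI44L: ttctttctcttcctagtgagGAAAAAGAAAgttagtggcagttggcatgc
IFI44: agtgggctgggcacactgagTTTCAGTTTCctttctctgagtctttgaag
IFIT1: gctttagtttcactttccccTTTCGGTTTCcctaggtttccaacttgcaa
IFIT3: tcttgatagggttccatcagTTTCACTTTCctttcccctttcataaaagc
IFIH1: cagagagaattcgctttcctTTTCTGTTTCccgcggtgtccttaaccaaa

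In GRCh38.p14 these lie at chr1:1013370-1013419 (ISG15, plus strand), chr1:27672256-27672305 (IFI6, minus), chr1:78620355-78620404 (IFI44L, plus), chr1:78649751-78649800 (IFI44, plus), chr10:89392500-89392549 (IFIT1, plus), chr10:89332458-89332507 (IFIT3, plus) and chr2:162318808-162318857 (IFIH1, minus). The capitals begin between 51 bases (IFIT3) and 153 bases (IFIH1) before the start site used for the choice, and those of IFI44 also lie 18 bases before another of its start sites. A match is a stretch of letters and not a measured binding site. Over all expressed genes with a promoter entry, the median log2 fold change was 0.024 for 351 genes with a match and -0.0058 for 8089 without, and 5.98% of the former and 2.71% of the latter were 1.5-fold higher. Without the listed ISGF3 targets the medians were 0.0086 for 338 genes and -0.0059 for 8086, and the shares 4.14% and 2.71%.

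Of the 9 signal genes 6 had a promoter entry, with IRF2, IRF3 and IRF7 missing, and none of the 6 held the response element motif in this window. Among expressed genes in general 351 held it and 8089 did not, so its absence from 6 genes says little about them. The gamma activated site TTCNNNGAA, which reads the same on both strands and is bound by STAT dimers, was found in IRF1 and IRF9. It occurs in 7.66% of all promoters, a share counted per promoter and not per gene. Over all expressed genes with a promoter entry, the median log2 fold change was 0.0040 for 731 genes with this motif and -0.0049 for 7709 without. Both sites are shown because they are the only matches of either motif among the members, and the log2 fold changes of IRF1 and IRF9 were 0.099 and -0.035.
IRF1: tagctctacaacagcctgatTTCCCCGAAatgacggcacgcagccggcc
IRF9: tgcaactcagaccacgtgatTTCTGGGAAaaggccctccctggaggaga

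These lie at chr5:132490869-132490917 (IRF1, minus strand) and chr14:24161182-24161230 (IRF9, plus strand) of GRCh38.p14, and the capitals begin 124 and 63 bases before the start site.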

How the data were processed

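RNA depleted of ribosomal RNA was sequenced from 4 libraries, 2 per condition, made with the ScriptSeq v2 kit. The submitters' processing notes name cutadapt 1.2.1, TopHat2 2.0.8, Cufflinks and Cuffdiff 2.0.2 with the build hg19. The deposited FPKM values are 1 per transcript and condition, with both libraries pooled. Columns with the authors' comparison (fold change, test statistic, p, q and a significance mark) were left aside.

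FPKM was summed per gene symbol, and log2 ratios were taken without a pseudocount. Genes or transcripts were kept if FPKM averaged 1 or more and exceeded 0 in both conditions. Limits were a log2 fold change of 1, a 1.5-fold change and 20 percentage points of transcript share. Because values are pooled, no new test, interval or replicate check was possible. The members and lists were chosen with earlier results of these data known. Each list is described by its counts, and by at most the 4 expressed genes with the largest change and the 2 most abundant. The ISGF3 targets are the exception, since further genes of that list are named. The values of 1 listed gene are not reported here. Coordinates of the table, with the start counted from 1, are hg19, which matches GRCh37. Strands, exons, neighbours within 1000 bases and the annotated positions of JAK1 and IRF3 came from GENCODE release 44 mapped to GRCh37. Alternatives changed the filter, pseudocount, scaling and gene value. The code of the summing and calling steps was run on siControl values changed by set factors past the limit, without noise. That run checks the code and cannot show how well real differences are called. Python 3.11.15, numpy 2.4.6, pandas 2.3.3 and matplotlib 3.10.9 were used.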

Additional observations from a re-analysis of the deposited data

How the results depend on the processing

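No paired analysis was possible because only pooled values per condition were analysed here, and for the same reason no replicate could be left out. Over 118 values of 19 results under alternatives, 106 moved by less than 0.1 on the log2 scale, 5 percentage points or 1.5 times in a count, and 12 moved further. Many of the 106 could not move, so their number does not measure robustness. Filters on the mean leave the ratio of a gene as it was, and 5 members have only 1 transcript to choose or sum. With the most expressed transcript in place of the gene sum, the log2 fold change became 0.69 for IRF3 (from -0.079), 0.61 for IRF7, 0.27 for STAT2 and 0.094 for STAT3, the median of the members 0.099, and the number of members changed 1.5-fold 2 in place of 0. With only transcripts at a mean FPKM of at least 1 summed, IRF7 was 0.61 and 1 member was changed 1.5-fold. With a pseudocount of 1, IRF7 was 0.28. Without a filter 5 member transcripts passed a log2 fold change of 1 in place of 0, and 7 other pathway genes were changed 1.5-fold in place of 4, against 2 at a mean FPKM of at least 5, where IRF7 gave no value. The causes were not tested. The scalings shifted all values by between -0.0034 and 0.029 on the log2 scale. Transcripts of a gene share 1 locus in the table, so merging by locus could give no share. The most expressed transcript for the target and pathway lists was an alternative chosen after the data were seen. Depth is unknown, and what it limits cannot be stated.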
